A study of Homo sapiens with 36 samples.

Results

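HMC3 cells that had received vehicle only were compared at their later and earlier harvests, so that the differences described here arose without perfluorooctane sulfonate (PFOS). The comparison used 6 of the 36 samples of the series, chosen by their labels: 3 RNA-seq libraries of vehicle cells harvested at 24 h, and 3 of vehicle cells whose medium was then exchanged for fresh medium without PFOS and which were harvested 24 h later. HMC3 is an established human cell line described as microglial, and it was kept in high-glucose DMEM with 10% fetal bovine serum. The other RNA groups of 3 libraries received 25 or 50 µM PFOS, a persistent fluorinated surfactant, for the same 24 h, and were harvested at once or after the same medium change. The 18 H3K27ac CUT&Tag samples were not analysed here. The later vehicle cells differ from the earlier ones in total time in culture and in having had a medium change, and these cannot be told apart. Library names also run in one block for all 24 h RNA libraries and in the next block for all recovery libraries, so handling order and harvest time cannot be told apart either.

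Cultured cells draw on serum growth factors, amino acids, glucose and sterols in their medium, and they sense a shortage of each through its own pathway. In the integrated stress response, kinases that sense amino acid shortage or misfolded protein raise the transcription factor ATF4, which induces enzymes and transporters for amino acids. Sterol shortage releases SREBP factors that induce cholesterol synthesis, fresh serum induces immediate early genes such as FOS within minutes, and YAP with TEAD factors responds to spreading and cell contact.

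Total counts were 882883, 2753911 and 3435906 in the vehicle libraries at 24 h and 1319266, 3982818 and 2151038 after recovery. Of 25344 gene symbols, 9847 passed the filter on low counts and were tested. Pearson's r of log2 CPM (counts scaled to library size) between libraries was 0.964 to 0.984 within the 24 h group, 0.966 to 0.967 within the recovery group and 0.948 to 0.971 between the groups. Markers of microglia were largely undetected: 12 of 19 were at 0 counts in all 6 libraries, among them AIF1, CX3CR1, TMEM119, ITGAM and SPI1, and the list's summed level lay between 214.4 and 238.9 CPM at 24 h and between 222.9 and 260.9 CPM after recovery. Fibroblast and mesenchymal markers summed to 3623 to 3768 CPM at 24 h and 2848 to 3579 CPM after recovery, so the groups did not overlap, and 0 of their 9 tested members were called. Epithelial markers summed to 702.1 to 757.1 CPM at 24 h and 540.5 to 584.5 CPM after recovery, also without overlap. Their 2 tested members, the keratin genes KRT8 and KRT18, were lower without overlap and not called. KRT18 made up most of the sum, at 659.8 to 713.2 CPM and 510.8 to 545.4 CPM. EPCAM and CDH1, members too scarce to be tested, were higher after recovery without overlap. EPCAM measured 1.18, 0 and 0.29 CPM, then 2.30, 2.36 and 1.37 CPM. CDH1 measured 0, 1.44 and 1.47 CPM, then 1.53, 4.455 and 2.75 CPM. KRT7, a keratin gene outside the list picked after its values were seen, fell by 1.08 on the log2 scale. Nuclear-retained long RNAs, which can mark RNA quality, summed to 296.8 to 354.0 CPM at 24 h and 373.0 to 393.3 CPM after recovery, so the groups did not overlap. The part of these markers and RNAs in the results was not tested. In bulk RNA, fewer cells of a type and less RNA per cell cannot be told apart.

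Between 24 h and recovery, 96 genes changed in vehicle cells at an adjusted p under 0.05 (called), which is 0.975% of the genes tested. Of these, 33 were higher after recovery (0.335%) and 63 were lower (0.64%), and 69 had changed at least 2-fold. The median log2 fold change was 1.17 among the called rises, −1.27 among the called falls and 0.01 over all genes tested. The 3 and 3 libraries did not overlap for 95 of the 96, against 18.3% of all tested genes. The count rested strongly on single libraries: it was 12 without replicate 2 of the 24 h group, 39 without its replicate 3, 17 without replicate 2 of the recovery group and 45 without its replicate 3, while it rose to 433 when the 3 libraries of 50 µM PFOS recovery did not enter the shared estimate of the spread. All 96 genes kept their direction wherever they were tested in 16 alternative settings (TBX3 changed sign in a further one, a second way of thinning the counts), but only 10 stayed called whichever of the 6 vehicle libraries was left out: DDIT4, ASNS, TOMM40, DONSON, CTGF, TGFBI, SRXN1, COTL1, TM9SF3 and TSPAN5.

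**Figure D1:**
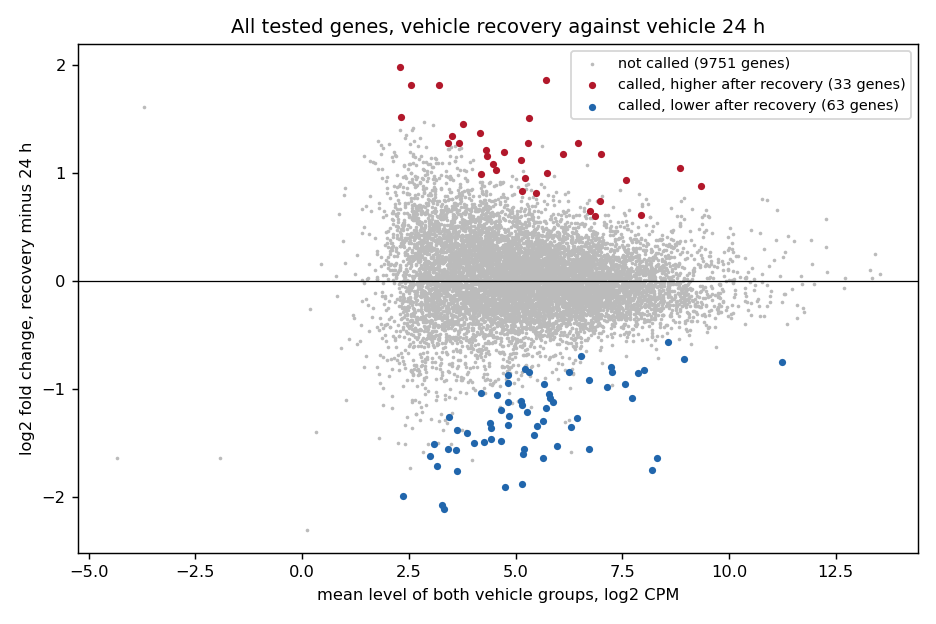
Log2 fold change of vehicle recovery against vehicle 24 h for the 9847 tested genes, against their mean level in log2 CPM. The 33 called rises and 63 called falls lie on both sides of a cloud centred on a median of 0.01.

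Of the gene lists examined, the integrated stress response held the most called rises. Of 29 tested members, 5 rose, 1 fell, and 24 had a positive log2 fold change, with a list median of 0.32. CHAC1, which encodes an enzyme that degrades glutathione, measured 32.9, 16.6 and 23.0 CPM in the 24 h libraries and 72.8, 117.9 and 52.6 CPM after recovery. The groups did not overlap, and its log2 fold change was 1.86 ± 0.32 (SE, adjusted p = 0.00479). ASNS, the asparagine synthetase gene, measured 44.7, 49.7 and 58.6 CPM at 24 h and 99.6, 114.0 and 163.4 CPM after recovery, a log2 fold change of 1.28 ± 0.20 (adjusted p = 0.00285). Every recovery library was above every 24 h library for ASNS.

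DDIT4, an inhibitor of the growth-controlling kinase complex mTORC1, rose from 20.6 ± 2.70 to 58.9 ± 6.10 CPM (SD, n = 3), with a log2 fold change of 1.52 ± 0.20 (adjusted p = 0.000963). ADM2, which encodes a peptide hormone, was scarce, at 18 counts in all over the 24 h libraries and 55 over the recovery libraries, and rose by 1.52 ± 0.35 on the log2 scale (adjusted p = 0.0414). Its call was lost in 10 of the 14 alternatives in which it was tested, with an adjusted p of up to 0.292. ALDH1L2, a mitochondrial enzyme of folate metabolism, rose by 1.09 ± 0.24 on the log2 scale (adjusted p = 0.0361). The member that fell was SLC7A5, which encodes the main importer of large neutral amino acids: it went from 121 ± 12.9 to 51.7 ± 17.9 CPM, a log2 fold change of −1.27 ± 0.26 (adjusted p = 0.0223). The factor genes themselves were not called: ATF4 had a log2 fold change of 0.59 (adjusted p = 0.136) and DDIT3 one of 0.74 (adjusted p = 0.207). The 20 aminoacyl-tRNA synthetase genes, which charge tRNAs with amino acids, had a median of 0.04 with 0 called.

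**Figure D2:**
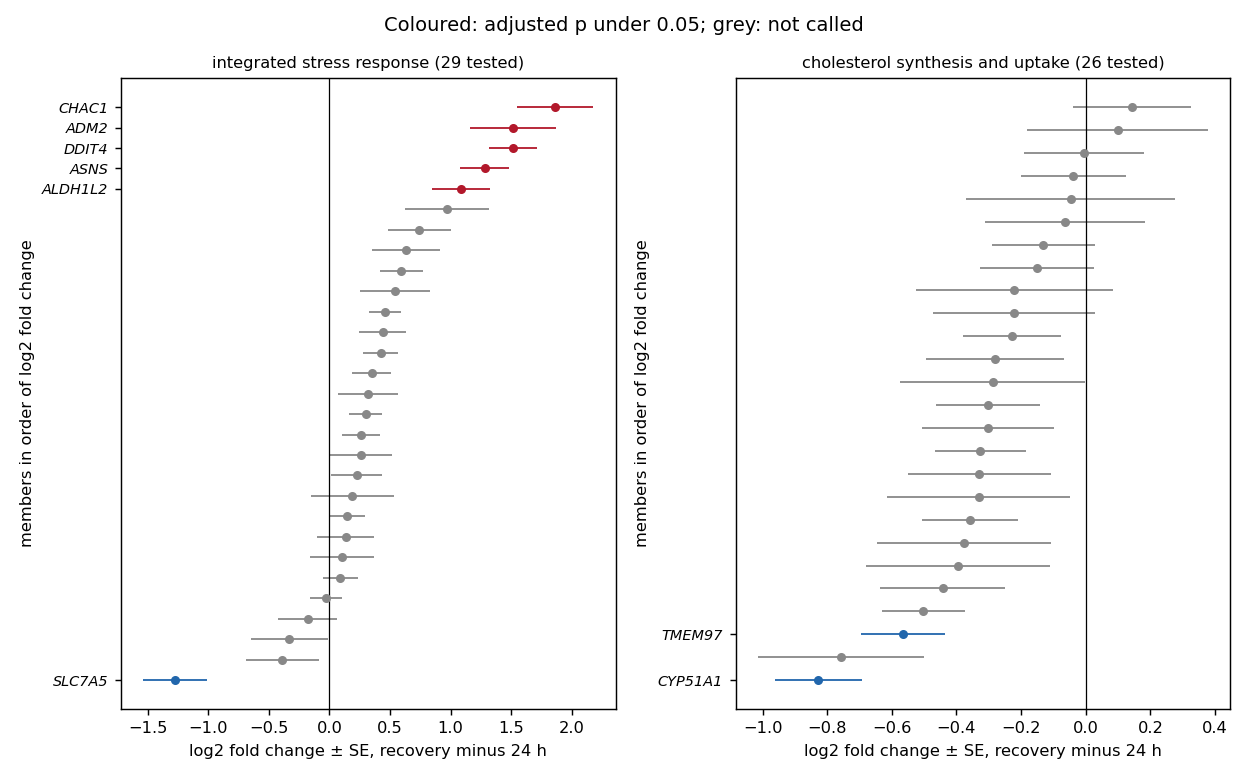
Log2 fold change ± SE of every tested member of the integrated stress response list (left, 29 genes) and the cholesterol list (right, 26 genes), in order of size, with the called members named. 24 of the 29 lie above 0 on the left, and 24 of the 26 lie below 0 on the right.

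The promoter of CHAC1 is shown because it belongs to the member with the largest rise. It is given as the 250 bases before the RefSeq start of the gene, 5′ to 3′ on the gene's strand (build GRCh38.p14, chr15:40953221-40953470, plus strand), with matches to the CCAAT box, the letters CCAAT searched on both strands, in capitals.
CHAC1: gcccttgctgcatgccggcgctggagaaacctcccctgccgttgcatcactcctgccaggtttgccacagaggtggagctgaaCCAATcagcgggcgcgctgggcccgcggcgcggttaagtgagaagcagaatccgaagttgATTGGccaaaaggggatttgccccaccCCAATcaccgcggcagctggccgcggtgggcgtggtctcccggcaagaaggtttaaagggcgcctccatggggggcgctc
The 3 matches begin 167, 107 and 80 bases before the start. A CCAAT box was found in 12 of 23 promoters of the integrated stress response list and in 36.5% of the 8152 tested genes with a promoter sequence. Among all called rises it was found in 6 of 28 promoters (21.4%). The letters TGATGNAAT, of the amino acid response element, were found in 0 of those 23 promoters and in 0.454% of all. Only exact matches within the 250 bases were counted, so this does not show that the promoters lack the element. The CHAC1 sequence above holds, on the other strand, a stretch that differs from these letters in the last base only. Whether these promoters hold the element in other letters or further away was not tested.

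The next 3 called genes were picked after their values were seen and belong to no common list. ASS1, which makes argininosuccinate from citrulline, rose from 21.6 ± 4.30 to 47.8 ± 8.73 CPM (log2 fold change 1.12 ± 0.19, adjusted p = 0.00462). SLC38A1, a glutamine transporter gene, rose from 193 ± 22.7 to 294 ± 30.5 CPM. ABCA1, the cholesterol exporter and 1 of 4 tested LXR targets, rose from 11.9 ± 2.16 to 28.1 ± 3.70 CPM.

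Immediate early and AP-1 genes moved in both directions: of 18 tested, 3 rose and 1 fell, with a median of 0.29. FOS, a subunit of AP-1, measured 107.0, 65.6 and 69.5 CPM at 24 h and 183.8, 204.7 and 143.7 CPM after recovery, and its log2 fold change was 1.18 ± 0.22 (adjusted p = 0.00970). FOSB rose from 7.77 ± 2.48 to 19.5 ± 2.60 CPM. MAFF, a small Maf factor gene, showed the largest fall of all called genes, from 15.9 ± 4.13 to 4.29 ± 1.76 CPM (log2 fold change −2.11 ± 0.43, adjusted p = 0.0186). EGR1 and JUN, further members, were not called, with log2 fold changes of −0.31 and 0.57. EGR1 was at 431.6 CPM in replicate 1 of the 24 h group and at 155.3 and 147.8 CPM in the others.

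Of 20 tested p53 targets, 2 rose, 1 of which, BTG2, is also counted in the list above, and 17 had a positive log2 fold change, with a list median of 0.38. CDKN1A, which encodes the cell cycle inhibitor p21, measured 346.9, 259.4 and 303.6 CPM at 24 h and 684.0, 669.5 and 526.4 CPM after recovery (log2 fold change 1.05 ± 0.18, adjusted p = 0.00485). CDKN1A was also the 1 call among 22 tested growth arrest and FOXO targets, of which 10 were higher and 12 lower (median −0.02). BTG2, an antiproliferative gene, rose from 9.81 ± 0.46 to 26.2 ± 4.56 CPM (log2 fold change 1.37 ± 0.27, adjusted p = 0.0148). MDM2, the p53 ubiquitin ligase gene, had a log2 fold change of 0.42 and was not called (adjusted p = 0.474). Cell cycle genes did not pass the test: 0 of 38 DNA replication genes and 0 of 31 mitosis genes were called, with 30 and 24 of them lower after recovery and medians of −0.20 and −0.10. TOP2A measured 1423 ± 113 and 1542 ± 100 CPM, and MCM3 900 ± 8.55 and 880 ± 98.6 CPM. TPX2, a mitosis gene, measured 1502, 1625 and 1469 CPM at 24 h and 1219, 1170 and 1437 CPM after recovery. TK1, of the replication list, measured 879.7, 964.6 and 1062 CPM at 24 h and 857.9, 832.0 and 688.4 CPM after recovery. TPX2 and TK1 were thus lower without overlap, and not called.

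**Figure D3:**
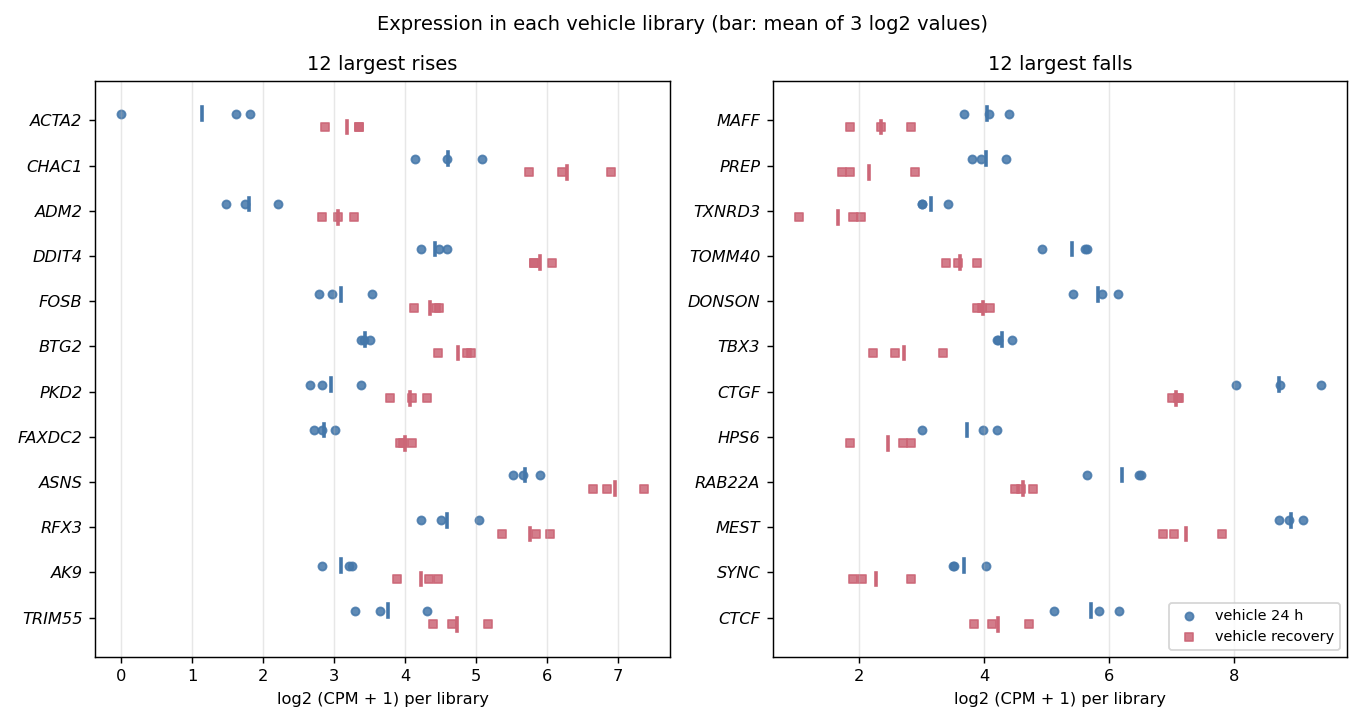
Level of the 12 genes with the largest rise (left) and the 12 with the largest fall (right) in each vehicle library, as log2 (CPM + 1), with 24 h as circles, recovery as squares and the mean of 3 log2 values as a bar. By the rule for choosing them, the groups do not overlap for any of the 24.

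The other large rises were a mixed set. ACTA2, smooth muscle actin, had the largest log2 fold change, 1.98 ± 0.44, on few counts: 0, 7 and 7 at 24 h and 12, 24 and 20 after recovery. Its call was lost with any of the 6 libraries left out, and among 6 tested pericyte and smooth muscle markers no other was called. The summed level of those markers was 227.0 to 238.7 CPM at 24 h and 266.4 to 271.2 CPM after recovery, and its part in the result was not tested. Rises of 1.22 to 1.34 on the log2 scale were measured for PKD2, a polycystin channel gene, RFX3, a transcription factor gene of ciliogenesis, AK9, an adenylate kinase gene, FAXDC2 and TRIM55. Counts were few for PKD2 (43 in all at 24 h and 121 after recovery), AK9 (53 and 137) and FAXDC2 (42 and 107). Their calls held in 8, 8 and 7 of 15 alternatives. For TRIM55 the call held in 11 of 16, with an adjusted p of up to 0.54, and for RFX3 in 12 of 16. RFX3 went from 23.7 ± 7.25 to 54.0 ± 12.6 CPM. CD274, which encodes the immune checkpoint ligand PD-L1, and CLDN1, a tight junction claudin gene, were picked after their values were seen: CD274 rose from 133 ± 31.7 to 251 ± 48.0 CPM, and CLDN1 from 460 ± 156 to 837 ± 127 CPM.

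Called falls included 3 TGF-beta targets and 1 YAP and TEAD target. CTGF (now CCN2), a secreted matricellular protein gene, measured 675.1, 428.4 and 260.9 CPM at 24 h and 137.9, 136.3 and 127.2 CPM after recovery. The 24 h libraries were far apart from each other, yet all lay above the recovery libraries, and the log2 fold change was −1.75 ± 0.28 (adjusted p = 0.00339). CTGF was the 1 call among 19 tested YAP and TEAD targets, whose median was 0.07. CYR61 measured 1126 ± 84.2 and 1194 ± 67.6 CPM, and ANKRD1 61.9 ± 5.46 and 66.3 ± 9.53 CPM.

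Because CTGF is the TEAD target that was called, its promoter is shown in the same way (GRCh38.p14, chr6:131951373-131951622, minus strand), with the letters GGAATG of the TEAD site, searched on both strands, in capitals.
CTGF: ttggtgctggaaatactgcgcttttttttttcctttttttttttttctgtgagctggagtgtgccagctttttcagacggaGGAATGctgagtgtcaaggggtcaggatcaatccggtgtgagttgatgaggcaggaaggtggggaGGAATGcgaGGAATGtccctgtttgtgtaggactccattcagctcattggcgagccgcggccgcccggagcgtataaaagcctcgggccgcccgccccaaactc
The 3 matches begin 169, 104 and 95 bases before the start. The letters occurred in 5 of 15 promoters of the YAP and TEAD list, among them that of ANKRD1, and in 9.22% of all tested genes with a promoter sequence.

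Of 12 tested TGF-beta targets, 3 fell and none rose, with a median of −0.22. TGFBI, a secreted matrix protein gene, measured 110.6, 118.2 and 110.4 CPM at 24 h and 45.2, 39.3 and 49.0 CPM after recovery, a log2 fold change of −1.35 ± 0.20 (adjusted p = 0.00191). Replicates differed little within either group for TGFBI. The receptor gene TGFBR2 fell from 38.0 ± 4.98 to 18.1 ± 4.52 CPM (log2 fold change −1.12 ± 0.23, adjusted p = 0.0225). PLAU, the urokinase gene, fell too, from 139 ± 19.1 to 73.2 ± 6.29 CPM. Of 20 matricellular and proteoglycan genes, GPC1 and SDC1, which encode cell-surface heparan sulfate proteoglycans, were called, with log2 fold changes of −1.26 ± 0.30 and −1.17 ± 0.28. Of 26 collagen and fibrillar matrix genes 0 were called, and FN1, the fibronectin gene, measured 11663 ± 1204 and 12237 ± 2116 CPM.

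Genes of cholesterol synthesis and uptake were lower after recovery in 24 of 26 cases, with a median of −0.30, and 2 of them were called. CYP51A1, the lanosterol demethylase gene, measured 315.2, 362.5 and 316.9 CPM at 24 h and 164.7, 172.7 and 222.9 CPM after recovery (log2 fold change −0.83 ± 0.13, adjusted p = 0.00348). TMEM97, a sterol-regulated membrane protein gene, fell from 454 ± 43.3 to 307 ± 23.3 CPM (log2 fold change −0.57 ± 0.13, adjusted p = 0.0392). The list median was negative in each of the 16 alternative settings, between −0.31 and −0.24. CYP51A1 stayed called in 15 of these settings and TMEM97 in 8, with an adjusted p of up to 0.291 for TMEM97. The fatty acid synthesis list had 1 call among 19: ACSS2, which makes acetyl-CoA from acetate, fell from 198 ± 16.7 to 111 ± 9.26 CPM.

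The promoter of TMEM97 is shown for a feature that most members of the cholesterol list share (GRCh38.p14, chr17:28318950-28319199, plus strand), with CCAAT boxes in capitals as above.
TMEM97: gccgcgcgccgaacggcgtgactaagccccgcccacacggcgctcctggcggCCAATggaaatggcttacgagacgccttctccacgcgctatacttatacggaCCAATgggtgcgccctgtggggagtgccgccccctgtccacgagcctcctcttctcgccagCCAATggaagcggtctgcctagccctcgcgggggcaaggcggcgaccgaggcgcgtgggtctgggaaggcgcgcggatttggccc
A CCAAT box was found in 16 of 19 promoters of the list, against 36.5% of all. The letters GGGCGG of the GC box were found in 18 of the 19 and in 69% of all. The letters CACNCCAC of the SREBP site were found in 2 of the 19 and in 4.51% of all.

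Among energy and redox genes, LDHA, which makes lactate from pyruvate, was the called member of 22 glycolysis genes: it measured 2776, 3190 and 3152 CPM at 24 h and 1603, 1858 and 1960 CPM after recovery (log2 fold change −0.75 ± 0.14, adjusted p = 0.0131). The glycolysis median was −0.19, with 15 members lower. SRXN1, the sulfiredoxin gene that repairs peroxiredoxins, was the called member of 23 NRF2 targets and fell from 54.7 ± 7.86 to 19.0 ± 6.23 CPM (log2 fold change −1.56 ± 0.24, adjusted p = 0.00192). LDHA is shown with the letters ACGTG of the hypoxia response element in capitals (both strands searched; GRCh38.p14, chr11:18394313-18394562, plus strand).
LDHA: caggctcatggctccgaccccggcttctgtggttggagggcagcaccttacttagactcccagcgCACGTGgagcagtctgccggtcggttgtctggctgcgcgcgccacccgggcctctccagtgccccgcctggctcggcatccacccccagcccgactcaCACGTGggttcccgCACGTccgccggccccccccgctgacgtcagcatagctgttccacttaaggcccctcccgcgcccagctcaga
Matches begin 185, 87 and 73 bases before the start, and the first and the second are also E-boxes (CACGTG), which the same letters overlap. The letters ACGTG occurred in 25% of all tested genes with a promoter sequence.

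The remaining large falls were spread over unrelated functions. TOMM40, the pore of the mitochondrial import channel, fell from 42.3 ± 11.2 to 11.4 ± 2.21 CPM, with no overlap (log2 fold change −1.91 ± 0.23, adjusted p = 0.000630). DONSON, a replication fork protein gene, fell from 56.5 ± 13.9 to 14.8 ± 1.12 CPM, and MEST, an imprinted gene, from 482 ± 64.3 to 157 ± 59.0 CPM. CTCF, the insulator protein gene, fell from 53.5 ± 18.7 to 18.4 ± 6.18 CPM, and RAB22A, an endosomal GTPase gene, from 75.9 ± 23.4 to 23.7 ± 2.61 CPM. Falls of 1.62 to 2.07 on the log2 scale were given by PREP, a prolyl peptidase gene, TXNRD3, a thioredoxin reductase gene, the T-box factor gene TBX3, HPS6 and SYNC. These rested on few counts: TXNRD3 had 57 in all at 24 h and 14 after recovery, SYNC 77 and 26, and HPS6 106 and 30. Calls held in 8 of 14 alternatives for TXNRD3 and SYNC and in 9 of 15 for HPS6. They held in 12 of 14 for PREP and 12 of 15 for TBX3. LMNB1 and LMNB2, the B-type lamin genes, were picked after their values were seen: LMNB1 fell from 40.7 ± 9.49 to 17.2 ± 5.55 CPM and LMNB2 from 47.4 ± 5.28 to 26.9 ± 3.02 CPM.

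Several lists leaned one way without a call. Of 28 interferon response genes, 22 were higher after recovery, with a median of 0.33. IFITM3, a membrane protein gene of antiviral defence, measured 1912, 981.1 and 1392 CPM at 24 h and 2450, 3385 and 1335 CPM after recovery, so the groups overlapped (adjusted p = 0.229). Of 14 MHC class I genes, 12 were higher, with a median of 0.29. Small nucleolar RNA host genes were higher in 14 of 15 cases, with a median of 0.36. Of 80 cytosolic ribosomal protein genes 73 were higher, with a median of 0.21, and this lean came mostly from 1 library: against the 24 h mean, the list median was 0.47 in replicate 2 of the recovery group and 0.06 and 0.02 in replicates 1 and 3. Ribosome biogenesis genes were lower in 27 of 35 cases (median −0.17) and proteasome genes in 25 of 33 (median −0.09). Medians lay between −0.02 and 0.10, with 0 called, for heat shock proteins, circadian clock genes, ER chaperones, the respiratory chain, lysosome and autophagy genes and NF-kB targets.

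**Figure D4:**
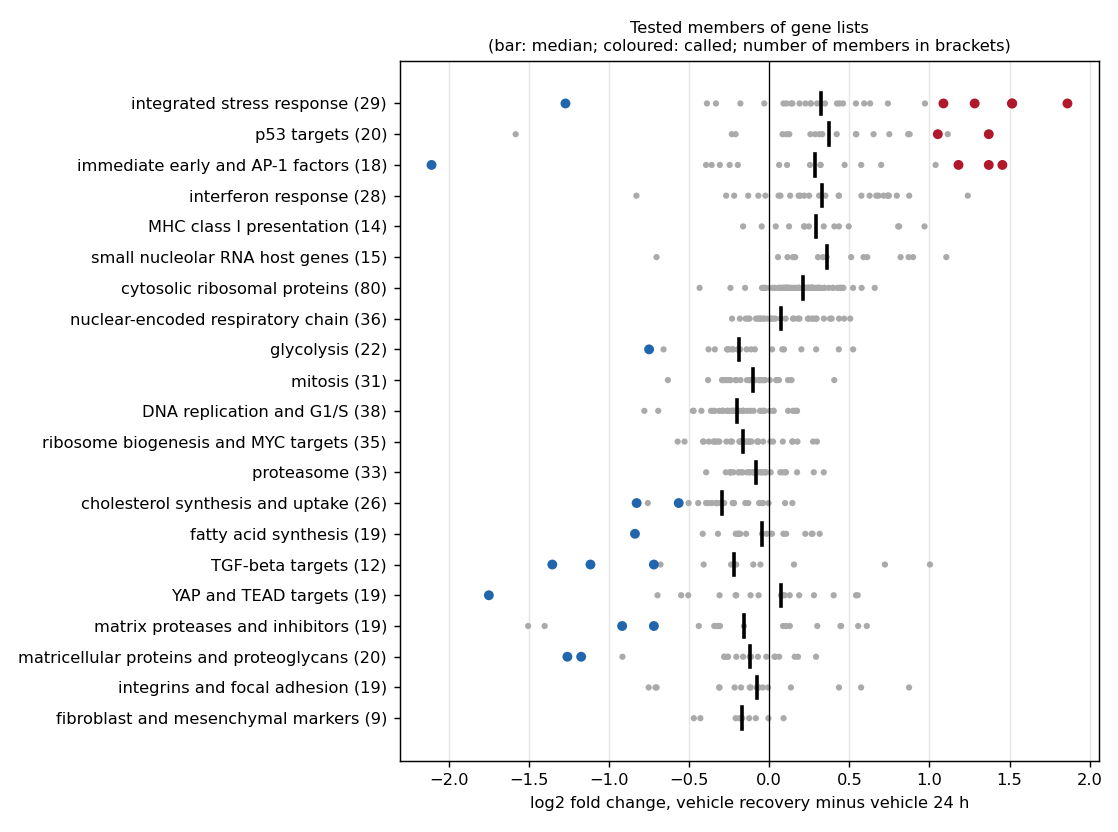
Log2 fold change of the tested members of 21 gene lists, each point a gene, with called genes coloured, the list median as a bar and the number of members in brackets. The integrated stress response has 5 called rises and 1 called fall, and the cholesterol list 2 called falls.

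The same interval of time in cells that had received PFOS was compared with that in vehicle cells, using libraries that are not shared between these time comparisons. In the 25 µM arm 149 genes were called between 24 h and recovery (1.51%), and in the 50 µM arm 3277 (33.3%). Of the 96 genes called in vehicle cells, 31 also passed the test with the same sign at 25 µM, which is 32.3% of the vehicle genes and 20.8% of the 25 µM genes, and 0 in the opposite direction. These were 6 rises, among them CDKN1A, BTG2, CD274, ABI3BP and CLU, and 25 falls, among them TOMM40, DONSON, TGFBI, TGFBR2, PLAU, LDHA, SLC7A5 and SRXN1. At 50 µM, 26 passed with the same sign and 13 with the opposite one. In all 3 arms 19 were called in 1 direction, of which 4 were rises and 15 falls. TGFBI, for example, changed by −1.35, −1.44 and −1.46 on the log2 scale in the vehicle, 25 µM and 50 µM arms.

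**Figure D5:**
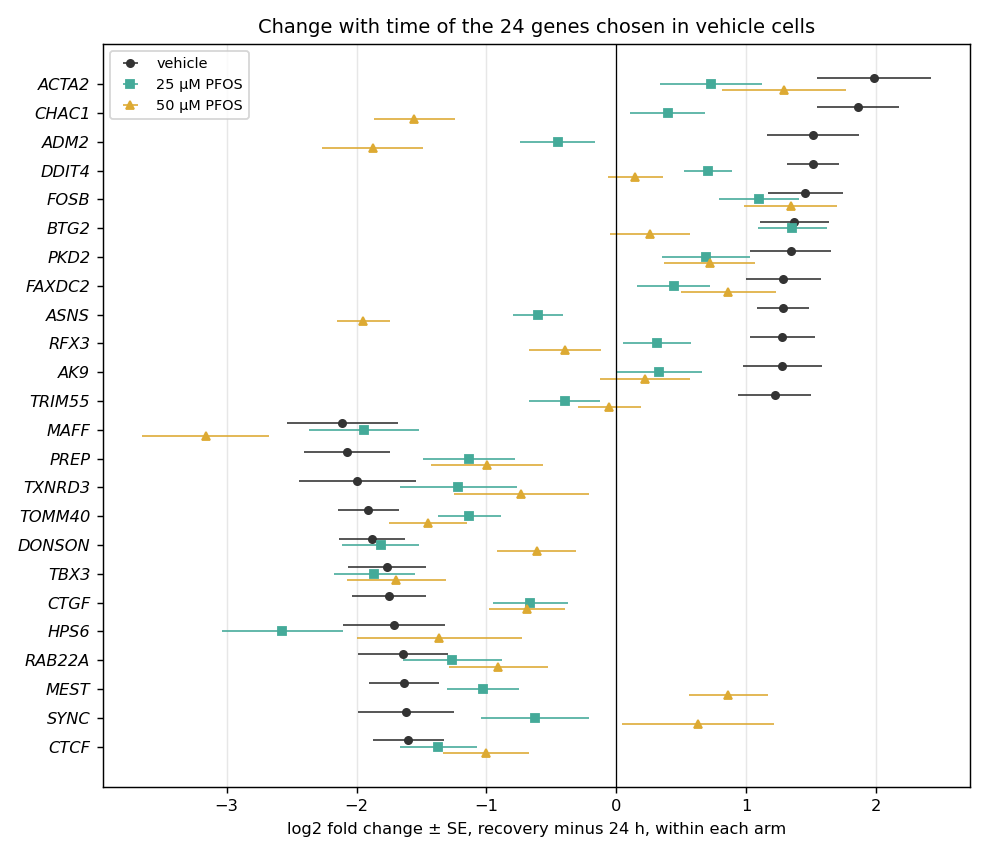
Log2 fold change ± SE between 24 h and recovery in the vehicle, 25 µM and 50 µM arms for the 24 genes with the largest changes in vehicle cells. The genes were chosen on the vehicle arm. TBX3 lies at −1.76, −1.86 and −1.70 in the 3 arms. CHAC1, ADM2, ASNS and MEST, called in both the vehicle and 50 µM arms, lie on opposite sides of 0 in them. RFX3, TRIM55 and SYNC also lie on opposite sides but were not called in the 50 µM arm.

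The test of the difference between arms called 2 genes at 25 µM (0.0203%) and 1878 at 50 µM (19.1%). ASNS rose by 1.28 in vehicle cells and changed by −0.60 in the 25 µM arm (adjusted p = 0.144), a difference of −1.88 ± 0.28 (adjusted p = 0.00534). Its levels in the 25 µM arm were 206.0, 227.2 and 261.6 CPM at 24 h and 161.0, 152.7 and 144.8 CPM after recovery, so it started above every vehicle library. SERPINE2, a protease inhibitor gene chosen because it is the other called gene, differed by −1.43 ± 0.18 (adjusted p = 0.00147), with 0.44 in vehicle cells (adjusted p = 0.123) and −0.98 at 25 µM. At 50 µM, 61.1% of the 1878 differences were higher than in vehicle cells, and 48.6% of 1874 with upper quartile scaling, which moves the median difference of all genes from 0.02 to −0.12. Of the 96 vehicle genes, 38 were among the 1878. The 96 were chosen on the vehicle libraries that also enter this difference. That choice alone can raise their share above 19.1%, so no conclusion is drawn from it.

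The integrated stress response and cholesterol lists had medians of opposite sign in the vehicle and PFOS arms. Integrated stress response genes had a median change of 0.32 in vehicle cells, −0.39 in the 25 µM arm with 4 of 29 called lower, and −1.42 in the 50 µM arm with 23 of 29 called lower. Cholesterol genes had medians of −0.30, 0.18 and 1.07, with 1 of 26 called higher at 25 µM and 20 of 26 at 50 µM. The medians of all tested genes were −0.00 in both PFOS arms. PFOS against vehicle at 24 h uses the same vehicle libraries as the comparison described here, so its values are given only side by side: ASNS differed by 2.16 ± 0.20 at 25 µM and 2.70 ± 0.21 at 50 µM, and CHAC1 by 1.85 ± 0.32 and 2.76 ± 0.32. Against the later vehicle cells, which also share libraries, ASNS differed by 0.27 ± 0.19 and −0.53 ± 0.20 after recovery from 25 and 50 µM. The cholesterol genes called in vehicle cells, CYP51A1 and TMEM97, differed from vehicle by −1.538 ± 0.141 and −1.805 ± 0.138 at 24 h of 50 µM. After recovery from 50 µM they differed from the later vehicle cells by 0.087 ± 0.138 and 0.114 ± 0.132.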

How the data were processed

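The members and gene lists were chosen with earlier results of these data known. Poly(A) RNA from TRIzol extracts was turned into paired-end libraries with Smart-seq2, per the labels' protocols. That method has no molecular identifiers and does not mark strand, so overlapping and antisense genes, and near-identical copies (ribosomal proteins, for example), are uncertain. The values deposited are raw, unnormalized counts for each gene symbol, per the file headers. The submitters' processing notes name Trimmomatic, STAR, DESeq2, MACS2 and the builds GRCh38 and hg38. Versions, annotation and strand setting: not given in the sources used here. The labels call replicates biological, and separate cultures are not stated, so p-values may measure technical spread only.

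Genes were kept by filterByExpr (minimum count 10, 6 groups). All 18 RNA libraries entered 1 quasi-likelihood fit (edgeR 4.0.16, R 4.3.3, TMM scaling) with a term for each of the 6 groups. Two-sided p-values were adjusted by Benjamini-Hochberg over all 9847 genes, and genes with an adjusted p under 0.05 are called. SE is the log2 fold change over the root of the F statistic. CPM, scaled by TMM, are given as mean ± SD over 3 libraries. The tested genes hold 99.3% of the counts of the 6 vehicle libraries, and depth limits scarce genes most. The model was tested on simulated data. Alternatives were other scalings, filters and libraries, thinning, a replicate block and DESeq2 1.42.0. Thinning first used thinCounts of edgeR. It was replaced by a draw without replacement, because it subtracts a draw made with replacement and sets negative counts to 0. Both results were known when it was replaced, and both are given.

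The genes named are the 12 called protein-coding genes with the largest rise and the 12 with the largest fall (non-overlapping libraries and a mean of 5 CPM or more at 1 harvest), and, per list with at least 5 tested members, up to 4 called members or the 2 most abundant as values. Others that are named were picked after their values were seen, including uncalled members of lists. Pseudogenes were removed from the ribosomal list after the table had been seen. Symbols are those of the table, and 95.3% were found in RefSeq. Promoters come from RefSeq (GRCh38.p14), as the 250 bases before the start, and 13 motifs were searched. Some items that the rule would name are not reported here.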

Additional observations from a re-analysis of the deposited data

Results flagged for a closer look

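The change with time differed between the PFOS arms and vehicle cells for 2 genes at 25 µM and 1878 genes at 50 µM, by a test of the difference itself. Among the genes called in vehicle cells and named by the rule for naming genes, ASNS differed at 25 µM, by −1.88 on the log2 scale. Genes called in vehicle cells were chosen on libraries that also enter each difference, which can enlarge the differences given here and below.

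At 50 µM, the following genes chosen by that rule differed, while genes picked after their values were seen were not considered. CHAC1, ADM2 and ASNS rose in vehicle cells and fell at 50 µM, where DDIT4 was not called: the difference was −3.41 for CHAC1, −3.39 for ADM2, −3.23 for ASNS and −1.37 for DDIT4. SLC7A5 fell in both arms and differed by −1.40. The sterol and acetate genes had the opposite sign, at 2.28 for ACSS2, 1.92 for TMEM97 and 1.63 for CYP51A1. MEST differed by 2.50, SYNC by 2.24, DONSON by 1.27 and LDHA by 1.25. RFX3 differed by −1.67, TRIM55 by −1.27 and CDKN1A by −0.93.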

How the results depend on the processing

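The 96 calls in vehicle cells became 433 without the 3 libraries of 50 µM PFOS recovery, 224 with no filter on low counts, 152 with DESeq2, 54 with a replicate block and 19 after thinning each library to 582233 counts without replacement. With thinCounts of edgeR, which was tried first and is an alternative added after seeing the data, 0 genes were called (637 at an unadjusted p under 0.05, against 735 with the draw without replacement and 1297 unthinned), and 1 called gene, TBX3, changed sign, to 0.53. Fold changes thinned without replacement had Pearson's r of 0.81 with the unthinned ones across genes, and those from thinCounts 0.55. Leaving out 1 library gave 12 to 72 calls. For vehicle libraries sharing a number, deviations from the group mean had r of −0.02, −0.25 and −0.05. For unlike numbers r lay between −0.18 and 0.29. With 3 libraries per group these values cannot show whether the numbers mark a pairing. The cause of the lower count with the replicate block was not tested.

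The 2 differences at 25 µM became 35 in their own libraries alone, 48 without the 50 µM recovery libraries, 34 with DESeq2, 10 with no filter and 0 with thinCounts (394 at an unadjusted p under 0.05), and 2 to 3 with 1 library left out. The 1878 at 50 µM became 1022 in their own libraries alone, 1058 after thinning and 335 with thinCounts. With 1 library left out they became 1188 to 3314, the highest without replicate 1 of 50 µM recovery. Without replicate 2 of that group the count was 1356. That library had the lowest TMM factor, 0.902, and its FN1 level was 2677 CPM, against 10069 and 6010 CPM in replicates 1 and 3. The cause of these shifts was not tested. Of the 96 genes, 9 were called in all 16 alternatives (thinCounts aside), and 16 of 42 list medians changed sign in at least 1. Depth limits what was found: the 24 h library of replicate 1 held 882883 counts.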
